A study of Mus musculus with 7 samples.

Results

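Interferon-stimulated genes are the set that cells switch on when interferon reaches its receptors. The 48 genes described here are a given list of such genes, and all 48 were found in the gene table among 21631 protein-coding genes on chromosomes 1 to 19 and X. They lay on 14 chromosomes. Chromatin was compared between mouse bone marrow leukaemia cells treated with 4 nM GSK-LSD1, an inhibitor of the histone H3 lysine 4 demethylase LSD1, for 48 h, and the same cells treated with the solvent DMSO. Both groups carried mutant CSF3R (the granulocyte colony-stimulating factor receptor) and mutant CEBPA (a granulocytic transcription factor) from retroviruses, were of BALB/c background and were grown in medium with serum. Neither group is normal bone marrow, and the labels do not say how many clones or cultures were used. Each treatment had 1 library for each of 3 histone marks (H3K4me1, H3K4me3 and H3K27Ac), and 1 input library made 7 in all. The authors deposited 1 segmentation per treatment, which gives every 200 bp bin a chromatin state from E1 to E6. There are no replicates, so no test of treatment was possible and no p-value is given. Sequencing depth is unknown, since the files hold state labels and no counts.

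The labels do not say which marks make up a state. E3 covered 70.1% of the genome in GSK-LSD1 and 73.3% in DMSO and is treated as background. E5 or E6 covered 3.61% of the genome in GSK-LSD1 and 2.20% in DMSO, yet lay at 56.1% and 54.1% of the starts of 17274 protein-coding genes. These 2 states are therefore named TSS type, after the transcription start site. E2 is a broad state that covered 19.3% of the genome in GSK-LSD1 and 21.3% in DMSO. E6 covered 2.08% of the genome in GSK-LSD1 and 0.217% in DMSO, and E1 covered 4.72% and 0.483%, so more of both is the general pattern against which the listed genes are read. A gene's window is the 20 kb on each side of both gene ends. Where windows of listed genes overlapped, the genes were joined into 1 locus and each bin was counted once, which gave 36 loci and 2449.8 kb.

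Type I interferons signal through a receptor pair and the kinases JAK1 and TYK2 to transcription factors that bind the interferon-stimulated response element. Interferon gamma signals through its own receptor, JAK1 and JAK2 to factors that bind the gamma-activated site. The induced proteins detect viral RNA and DNA, block viral replication and entry, mark proteins with ISG15 and attack vacuoles that hold pathogens. Myeloid cells express many of these genes at a low level without added interferon.

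The element that interferon signalling acts through can be read in the promoters themselves, so a few are shown first. Promoter sequences (250 bases before to 50 after the start) came from RefSeq on build GRCm38.p6, whose strain is not BALB/c, and 38 of the 48 genes had at least 1. The response element was searched on both strands as GAAA, any 2 bases and GAAA again, and 24 of these 38 genes (63.2%) held it, against 687 of 17274 protein-coding genes (3.98%). The gamma-activated site was searched as TTCNNNGAA, which reads the same on both strands, and 13 of 38 genes (34.2%) held it, against 9.02% of protein-coding genes. Matches to the 2 motifs may overlap by a few bases, as at Ifitm3. The 4 promoters below belong to the genes with the largest difference in TSS-type area among those with a response element, 1 per cluster. They are Ifitm3 (chr7:141010695-141010994, minus strand), which keeps viruses from fusing with endosomes, Igtp (chr11:58199306-58199605, plus strand), an immunity-related GTPase, Bst2 (chr8:71537423-71537722, minus strand), which tethers budding virions, and Gbp5 (chr3:142496684-142496983, plus strand), a guanylate-binding protein. Capitals mark the response element on either strand.
Ifitm3: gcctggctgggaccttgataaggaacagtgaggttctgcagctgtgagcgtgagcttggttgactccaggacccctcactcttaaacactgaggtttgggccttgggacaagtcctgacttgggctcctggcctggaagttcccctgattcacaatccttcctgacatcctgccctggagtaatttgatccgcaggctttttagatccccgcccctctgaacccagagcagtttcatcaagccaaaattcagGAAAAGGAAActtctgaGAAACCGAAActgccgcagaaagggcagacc
Igtp: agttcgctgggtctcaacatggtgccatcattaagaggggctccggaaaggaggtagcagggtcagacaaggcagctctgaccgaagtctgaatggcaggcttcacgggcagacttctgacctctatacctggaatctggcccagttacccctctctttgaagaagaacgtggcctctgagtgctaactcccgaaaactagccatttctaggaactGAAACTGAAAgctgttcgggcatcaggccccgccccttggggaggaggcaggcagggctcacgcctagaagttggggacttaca
Bst2: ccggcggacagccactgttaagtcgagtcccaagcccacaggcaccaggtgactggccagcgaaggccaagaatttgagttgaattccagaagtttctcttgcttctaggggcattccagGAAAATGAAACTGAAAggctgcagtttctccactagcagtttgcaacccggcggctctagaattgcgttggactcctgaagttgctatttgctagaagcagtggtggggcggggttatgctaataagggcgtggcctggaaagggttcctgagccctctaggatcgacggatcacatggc
Gbp5: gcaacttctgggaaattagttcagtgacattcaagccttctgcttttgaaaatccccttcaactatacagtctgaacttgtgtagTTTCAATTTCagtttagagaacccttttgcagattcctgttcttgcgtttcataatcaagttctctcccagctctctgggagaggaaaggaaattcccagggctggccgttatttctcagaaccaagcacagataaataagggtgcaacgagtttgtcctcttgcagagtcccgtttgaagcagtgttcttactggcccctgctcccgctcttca

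Counted from the start as position 0, the matches begin at positions 2 and 19 at Ifitm3, at -34 at Igtp, at -165 at Gbp5, and at -130 and -124, overlapping, at Bst2. Isg15, which encodes the ubiquitin-like modifier of the response, held 3 overlapping matches beginning at -78, -72 and -66 (GAAAAGGAAA, GAAACCGAAA and GAAACAGAAA). Ifit1, whose product binds foreign RNA ends, held TTTCACTTTC and TTTCAGTTTC, beginning at -104 and -85. A match describes the letters and does not show that a factor bound.

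Most of the listed genes already carried TSS-type chromatin at an end in DMSO, and almost none changed in this respect. E5 or E6 was present at an end in both segmentations at 35 genes, beside 50.7% of all protein-coding genes, and in neither at 11 genes, beside 44.2%. Trim21, a cytosolic antibody receptor and ubiquitin ligase, had it only in GSK-LSD1 (beside 4.11% of all genes), where its right end was E5 against E4 in DMSO. Ifi203, a PYHIN-family gene, had it only in DMSO (beside 0.985%), where its right end was E5 against E4 in GSK-LSD1. Both calls rest on which bin holds the gene end. Trim21 had a TSS-type run of 2.4 kb in GSK-LSD1 and one of 1.6 kb in DMSO that stopped in the bin before its end, and Ifi203 had runs of 0.6 kb in GSK-LSD1 and 1.2 kb in DMSO. When the 1 kb around each end was searched, both genes had E5 or E6 in both segmentations. Ifi204, another PYHIN gene, then was the 1 gene with it only in GSK-LSD1 (beside 2.64% of all genes), from a run of 0.2 kb, and 0 genes had it only in DMSO (beside 0.804%). The 11 genes with neither were Ifit3, Oas1g, Oas2, Oasl2, Rsad2, Adar, Ifi44, Rtp4, Iigp1, Ifi204 and Ifi27. Adar, an RNA-editing enzyme gene, had E4 at its outer end, but each of its 3 starts in the promoter table was E5 in both segmentations. Oasl2 also had E4 at its start, beside TSS-type runs of 1.6 kb in GSK-LSD1 and 1.0 kb in DMSO. When the 1 kb around each end was searched, Adar and Oasl2 had E5 or E6 in both segmentations.

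The type of start chromatin differed far more than its presence. Of the 31 ends with E5 in DMSO, 16 were E6 in GSK-LSD1, 14 were still E5 and 1 was E4. Over all protein-coding genes 49.0% of such ends were E6 in GSK-LSD1, so the share at the listed genes was close to the background. All 8 ends with E6 in DMSO remained E6, at Ifitm1, Ifitm2, Ifitm3, Irgm1, Parp9, Dtx3l and Lgals3bp. Among the 38 genes with a promoter entry, 13 starts were E6 in GSK-LSD1 and E5 in DMSO: Gbp2, Gbp3, Gbp5, Igtp, Irgm2, Bst2, Samhd1, Eif2ak2, Ddx58, Herc6, Trim25, Ifi35 and Oasl1. Starts that were E5 in both were those of Isg15, Ifit1, Ifit2, Oas1a, Oas3, Mndal, Ifih1, Gbp7, Tgtp1, Cmpk2, Xaf1 and Adar. A TSS-type start was present at 20 of 24 genes with a response element and 12 of 14 without one in GSK-LSD1, with the same counts in DMSO. Of the 687 protein-coding genes with a response element, 50.2% had a TSS-type start in GSK-LSD1 and 49.2% in DMSO. For all protein-coding genes the shares were 56.1% and 54.1%.

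**Figure D1:**
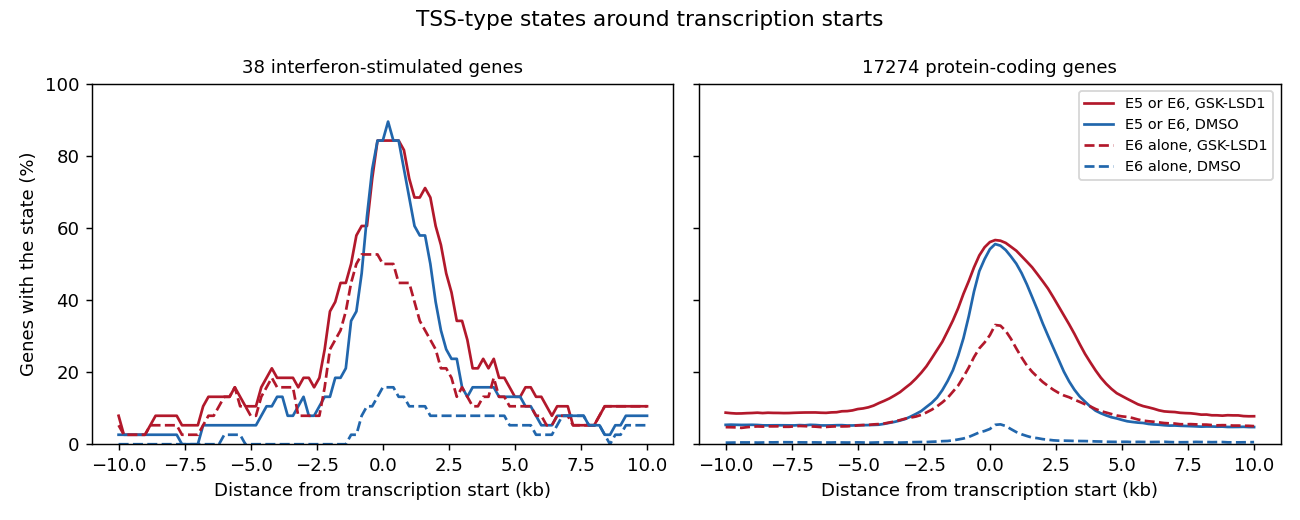
Share of genes with a TSS-type state (percent) against distance from the annotated transcription start (kb), for 38 interferon-stimulated genes and 17274 protein-coding genes, with solid lines for E5 or E6 and dashed lines for E6 alone. At the start itself 84.2% of the listed genes had E5 or E6 in GSK-LSD1 and 84.2% in DMSO. E6 alone was at 19 of the 38 starts in GSK-LSD1 and 6 in DMSO, beside 30.2% and 4.23% of protein-coding starts.

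Around the starts, TSS-type chromatin was wider in GSK-LSD1 rather than more frequent. At 2 kb downstream 60.5% of the 38 genes had E5 or E6 in GSK-LSD1 and 39.5% in DMSO, and at 2 kb upstream 36.8% and 13.2%. For all 17274 protein-coding genes the same distances gave 45.2% in GSK-LSD1 and 33.5% in DMSO downstream, and 26.1% and 12.9% upstream. At the start the protein-coding genes had 56.1% in GSK-LSD1 and 54.1% in DMSO, below the listed genes in both.

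Within 20 kb of the gene ends, the TSS-type area was larger in GSK-LSD1 at 37 of 48 genes, smaller at 7 and equal at 4. Of all protein-coding genes 66.1% were higher and 4.29% lower. The median difference, 1.4 kb, was that of all protein-coding genes, also 1.4 kb. The level had a median of 6.2 kb (range 0 to 39.4) in GSK-LSD1 and 4.4 kb (0 to 31.2) in DMSO. Among genes with a TSS-type end in DMSO, 31 of 36 listed genes were higher, beside 93.6% of all such genes, with a median difference of 2.5 kb beside 3.0 kb. The 3 genes Ifit3, Oas2 and Iigp1, had no E5 or E6 in either segmentation, beside 27.9% of all genes.

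**Figure D2:**
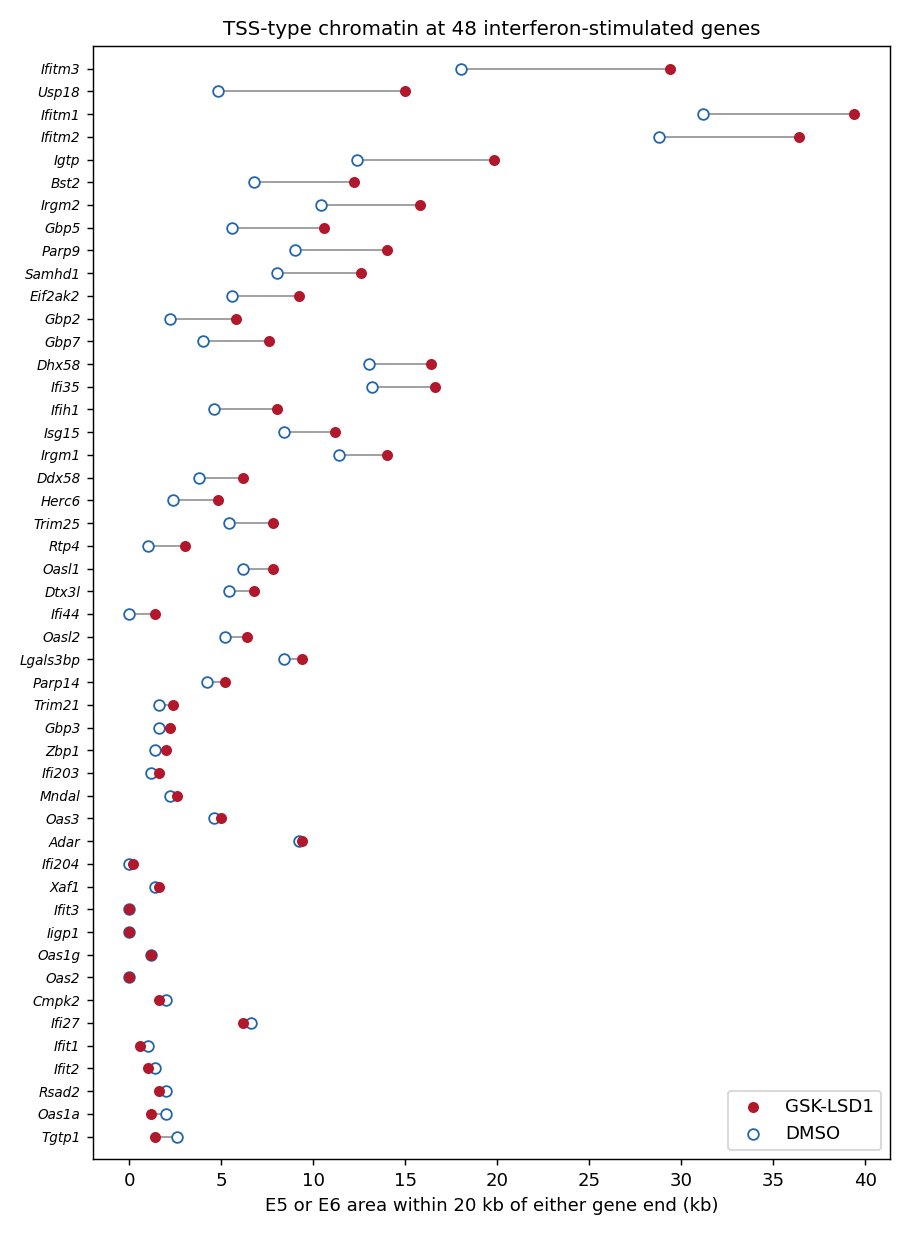
Area in E5 or E6 (kb) within 20 kb of either gene end for each of the 48 genes, ordered by the difference, with filled points for GSK-LSD1 and open points for DMSO. Ifitm3 and Usp18 show the widest gaps (29.4 against 18.0 kb and 15.0 against 4.8 kb), and the 7 genes at the bottom were lower in GSK-LSD1.

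The larger area rested on E6. GSK-LSD1 had more E6 at 30 genes, beside 54.0% of all genes, and less at 0. It had more E5 at 15 genes, beside 28.6%, and less at 28, beside 40.1%. Counted once over the union of windows, E6 covered 186.0 kb in GSK-LSD1 and 51.4 kb in DMSO, a ratio of 3.62, against 9.67 over the windows of all protein-coding genes. Of the DMSO area, 42.0 kb lay at the Ifitm locus. Without that locus the listed genes had 110.6 kb in GSK-LSD1 and 9.4 kb in DMSO, a ratio of 11.8. E1 or E6 together was larger at 32 genes and smaller at 0, beside 58.9% of all genes with more. Of the 100 TSS-type regions that touched the windows in GSK-LSD1, 34 overlapped none in DMSO (34.0%; 95% Wilson interval 25.5 to 43.7), against 31.8% for all protein-coding windows. In the other direction 1 of 82 DMSO regions overlapped none in GSK-LSD1 (1.22%; 0.216 to 6.59), against 4.68%. That region was a single bin, 12.4 kb from Ifit1 on chromosome 19 (34662401 to 34662600).

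By role, the counts below stand beside 66.1% of all genes with more TSS-type area, and 93.6% of those with a TSS-type end in DMSO, so a group in which nearly every gene had more is near that background. The 3 Ifitm genes had the most TSS-type chromatin of the list, and all 4 antiviral membrane protein genes, each with such an end in DMSO, had more in GSK-LSD1. Ifitm1, Ifitm2 and Ifitm3, which restrict viral entry, share 1 locus on chromosome 7, where E5 or E6 covered 75.4 kb of 96.0 kb in GSK-LSD1 and 54.6 kb in DMSO. All of the 75.4 kb in GSK-LSD1 was E6, whereas DMSO had 42.0 kb of E6 and 12.6 kb of E5. The run over Ifitm2 measured 22.4 kb in GSK-LSD1 (140940201 to 140962600) and 13.0 kb in DMSO (140947401 to 140960400). The runs over Ifitm1 (9.4 and 9.0 kb) and Ifitm3 (7.8 and 7.4 kb) were almost as long in DMSO, and the larger area in their windows thus lay mostly outside their own runs. Bst2 on chromosome 8 had 12.2 kb in GSK-LSD1 and 6.8 kb in DMSO, with the run at its start at 5.4 and 3.8 kb.

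Genes of the ISG15 system and of ubiquitin and ADP-ribosyl transfer had more in 8 of 8, with differences from 0.8 to 10.2 kb. Of these, 7 had a TSS-type end in DMSO (93.6% of all such genes had more), and Parp9 and Dtx3l share a window. Usp18, which removes ISG15 from proteins and dampens the type I receptor, had 15.0 kb in GSK-LSD1 and 4.8 kb in DMSO. Its window on chromosome 6 held 3 TSS-type regions that overlapped none in DMSO, at 121229801 to 121230600, 121231001 to 121233600 and 121241401 to 121242600. The first 2 were E6 where DMSO had mainly E2, 15.3 and 12.3 kb from the gene, and the third was E5 where DMSO had mainly E4, 3.31 kb away. Isg15 had 11.2 kb in GSK-LSD1, all in 1 run of E5 across the gene (156194801 to 156206000 on chromosome 4). In DMSO it had 8.4 kb of E5, with separate runs of 3.8 kb (156195601 to 156199400) and 1.4 kb (156200201 to 156201600) at its ends. Parp9, an ADP-ribosyltransferase that shares a bidirectional start region with the ubiquitin ligase gene Dtx3l, had 14.0 kb in GSK-LSD1 and 9.0 kb in DMSO.

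The nucleic acid sensors, all with a TSS-type end in DMSO, had more in 4 of 4 (beside 93.6%), with differences from 0.6 to 3.4 kb. Ifih1, which encodes the long double-stranded RNA sensor MDA5, had 8.0 kb in GSK-LSD1 and 4.6 kb in DMSO. Ddx58, which encodes the RNA sensor RIG-I, had 6.2 and 3.8 kb, and Dhx58, which encodes their relative LGP2, had 16.4 and 13.0 kb. The run at the right end of Dhx58 measured only 2.2 kb in GSK-LSD1 and 2.0 kb in DMSO. Most of the area in its window, and of the difference, thus lay outside that run. Zbp1, a Z-form nucleic acid sensor, had 2.0 kb in GSK-LSD1 and 1.4 kb in DMSO. Among enzymes that act on nucleic acids and nucleotides the values split. Samhd1, a dNTP hydrolase, had 12.6 kb in GSK-LSD1 and 8.0 kb in DMSO, and the run at its start measured 9.0 and 2.6 kb. Eif2ak2, the RNA-activated kinase PKR, had 9.2 and 5.6 kb. The neighbours Rsad2 (viperin) and Cmpk2 (a nucleotide kinase) shared 1.6 kb in GSK-LSD1 and 2.0 kb in DMSO. In both segmentations this was 1 run at the Cmpk2 start, so the 2 genes are not separate observations. Rsad2 had no E5 or E6 within 1 kb of either end.

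The interferon-inducible GTPases had more in 7 of 9 (beside 66.1% of all genes), less in 1 and none in either at Iigp1. A TSS-type end was present in DMSO at 8 of the 9, and 93.6% of all such genes had more. Igtp and Irgm2, neighbours on chromosome 11 whose products regulate GTPases at pathogen vacuoles, had 20.8 kb in GSK-LSD1 and 12.6 kb in DMSO in their shared windows. Per gene, Igtp had 19.8 kb in GSK-LSD1 and 12.4 kb in DMSO, and Irgm2 had 15.8 and 10.4 kb. Both start bins were E6 in GSK-LSD1 and E5 in DMSO, and both right ends were E1 in GSK-LSD1 and E2 in DMSO. In contrast, Tgtp1, another of these GTPase genes on the same chromosome, had 1.4 kb in GSK-LSD1 and 2.6 kb in DMSO. This was the largest decrease in TSS-type area of the list. Irgm1 had 14.0 kb in GSK-LSD1 and 11.4 kb in DMSO, with E5 at its left end in GSK-LSD1 and E2 there in DMSO.

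The remaining ISG15, ubiquitin and ADP-ribosyl genes and 6 genes of mixed function differed by at most 3.4 kb. Trim25, a ubiquitin ligase that activates RIG-I, had 7.8 kb in GSK-LSD1 and 5.4 kb in DMSO. Herc6 had 4.8 and 2.4 kb, Dtx3l had 6.8 and 5.4 kb, Parp14 had 5.2 and 4.2 kb, and Trim21 had 2.4 and 1.6 kb. All of these were higher in GSK-LSD1. In the mixed group, Ifi35 had 16.6 kb in GSK-LSD1 and 13.2 kb in DMSO, Rtp4 had 3.0 and 1.0 kb, and Lgals3bp, a secreted glycoprotein gene, had 9.4 and 8.4 kb. Ifi44 had 1.4 kb in GSK-LSD1 and 0 kb in DMSO, from 1 region of E5 12.1 kb away in Ifi44l. Xaf1 had 1.6 and 1.4 kb, while Ifi27 had 6.2 kb in GSK-LSD1 and 6.6 kb in DMSO. Adar, among the enzymes, had 9.4 and 9.2 kb.

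The Gbp cluster on chromosome 3 combined wider starts with a change from E5 to E6 at Gbp2, Gbp3 and Gbp5. Its 4 genes encode guanylate-binding proteins that attack pathogen vacuoles, and their windows together had 18.6 kb of E5 or E6 in GSK-LSD1 and 9.4 kb in DMSO. E6 made up 12.2 kb in GSK-LSD1 and 0 kb in DMSO. The start of Gbp7 was E5 in both. Over all protein-coding genes, 49.0% of ends with E5 in DMSO were E6 in GSK-LSD1. Gbp5 had 10.6 kb in GSK-LSD1 and 5.6 kb in DMSO, Gbp7 had 7.6 and 4.0 kb, and Gbp2 had 5.8 and 2.2 kb. Gbp3 differed least, with 2.2 kb in GSK-LSD1 and 1.6 kb in DMSO. Windows of Gbp3, Gbp5 and Gbp7 overlap, so these 3 are not separate observations.

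The Ifit and Oas clusters went the other way by a few bins. In the Ifit cluster on chromosome 19, E5 or E6 covered 1.6 kb in GSK-LSD1 and 2.4 kb in DMSO, with no E6 in either. Ifit1 had 0.6 kb in GSK-LSD1 and 1.0 kb in DMSO, Ifit2 had 1.0 and 1.4 kb, and Ifit3 had 0 kb in both. In the Oas cluster on chromosome 5, whose products make the second messenger that activates RNase L, the values were 6.2 kb in GSK-LSD1 and 6.6 kb in DMSO. Oas1a had 1.2 kb in GSK-LSD1 and 2.0 kb in DMSO, Oas1g had 1.2 kb in both, Oas2 had 0 kb in both and Oas3 had 5.0 and 4.6 kb. Each of these differences is a few bins wide. The 1.2 kb at Oas1g was the run at the Oas1a start, which the edge of the Oas1g window cut short in DMSO. Oas1g itself was E3 at both ends in both segmentations. The related pair Oasl1 and Oasl2 shared 9.4 kb in GSK-LSD1 and 7.2 kb in DMSO. In the Ifi200 cluster on chromosome 1, which encodes PYHIN-family proteins that bind DNA, the area was 4.4 kb in GSK-LSD1 and 3.4 kb in DMSO. There Mndal had 2.6 kb in GSK-LSD1 and 2.2 kb in DMSO, Ifi203 had 1.6 and 1.2 kb, and Ifi204 had 0.2 and 0 kb.

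**Figure D3:**
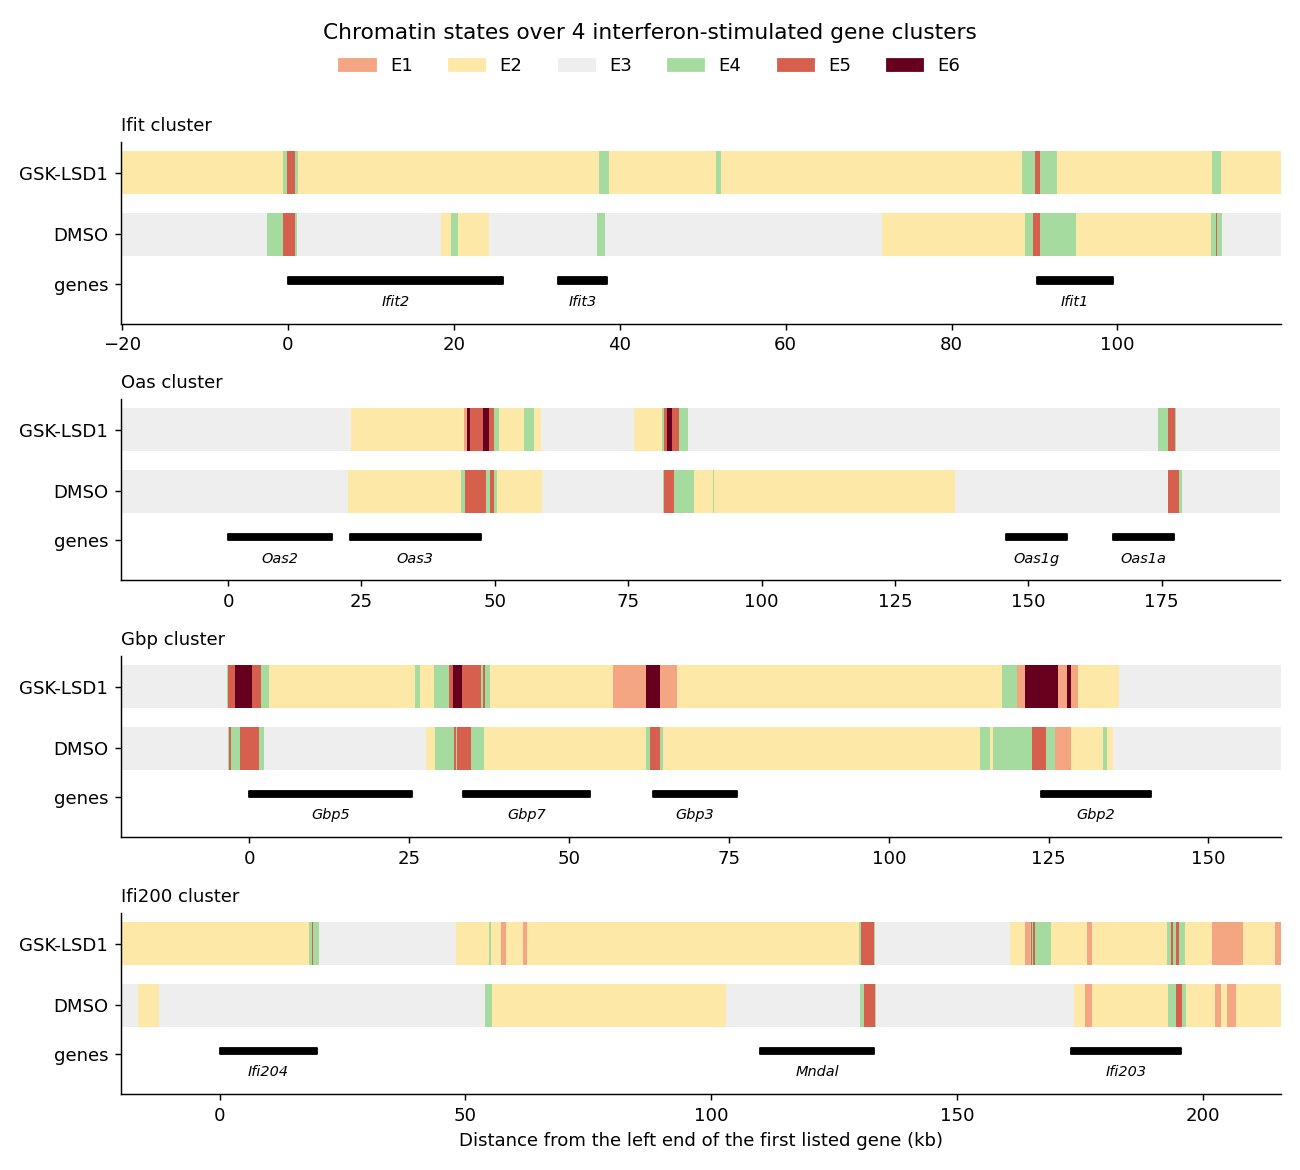
Chromatin states along the Ifit, Oas, Gbp and Ifi200 clusters, with the GSK-LSD1 segmentation above the DMSO segmentation and the listed genes as black bars, against distance from the first listed gene (kb). Background E3 over the Ifit cluster in DMSO (76.6 kb of the gene windows) is E2 or another marked state throughout in GSK-LSD1 (0 kb of E3), while E2 between Oas3 and Oas1g in DMSO is mostly E3 in GSK-LSD1.

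By area, the largest exchange between states around the listed genes was from E3 to the broad state E2. Of the 1028.0 kb that were background E3 in DMSO in the union of windows, 470.8 kb were E2 in GSK-LSD1, or 45.8% (95% Wilson interval 44.4 to 47.2, which covers counting error only and treats linked bins as independent). Over the windows of all protein-coding genes the share was 15.2%. Without the 6 of 36 loci with the most such area, the share for the listed genes was 25.8%. This comparison was made after the transitions had been seen, and bins of 1 block are not independent, so the gap between these shares was not tested. The share was higher at genes with a TSS-type end, in the list and among all genes. Among genes with a TSS-type end in DMSO the share was 56.0% for the listed genes and 31.8% for all protein-coding genes, and among genes without one it was 28.5% and 9.23%. At least 10 kb of E2 where DMSO had E3 was present at 15 of 48 listed genes, beside 16.9% of all protein-coding genes. The opposite exchange, at least 10 kb of E3 where DMSO had E2, was present at 6 of 48, beside 12.6%. Some of these genes share windows. With shared windows counted once, 13 of 36 loci had the first exchange and 6 the opposite one, while the shares for all genes are per gene.

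**Figure D4:**
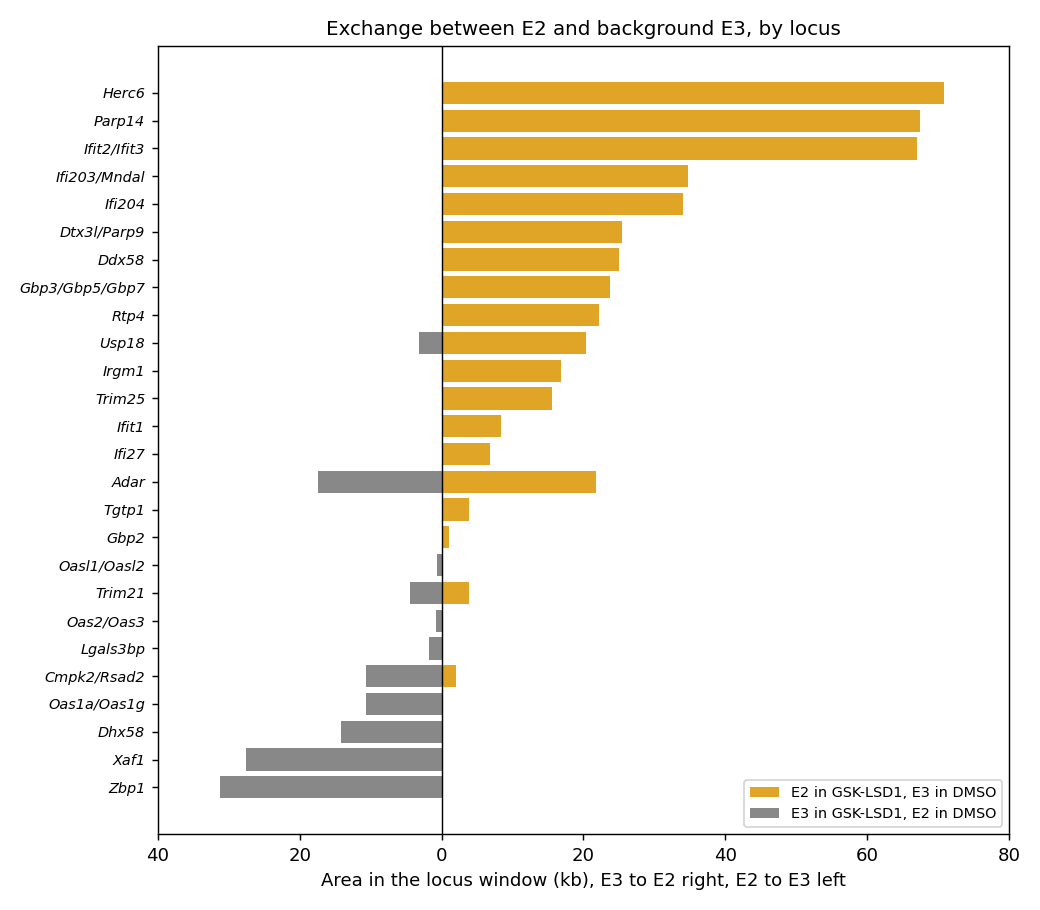
Area (kb) in each locus window that was E2 in GSK-LSD1 and E3 in DMSO (bars to the right) or E3 in GSK-LSD1 and E2 in DMSO (bars to the left), for loci with either. Herc6, Parp14 and Ifit2/Ifit3 lead on the right with 70.8, 67.4 and 67.0 kb, and Zbp1 and Xaf1 lead on the left with 31.2 and 27.6 kb.

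A few loci held most of this area. Herc6, which encodes a ligase that attaches ISG15 in mice, had 73.2 kb of E2 in GSK-LSD1 and 2.4 kb in DMSO. Its window held no E3 in GSK-LSD1 and 74.6 kb in DMSO. The window leaves out the middle of this long gene. Over the whole gene, E3 covered 22.6 kb in GSK-LSD1 and 81.4 kb in DMSO. Blocks of E2 in GSK-LSD1 that were E3 in DMSO measured 36.0, 29.8 and 44.2 kb on chromosome 6 (57543001 to 57579000, 57586201 to 57616000 and 57638601 to 57682800), the first of them just outside the gene. Parp14, an ADP-ribosyltransferase, had 72.4 kb of E2 in GSK-LSD1 and 5.6 kb in DMSO. There 1 block of 79.8 kb (chromosome 16, 35785601 to 35865400) covered most of the gene and reached into Hspbap1. On the same chromosome a block of 42.4 kb (23612201 to 23654600) began at the right end of Rtp4.

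The Ifit cluster showed the same exchange without more TSS-type chromatin. Its windows had 119.2 kb of E2 in GSK-LSD1 and 38.4 kb in DMSO, and 0 kb of E3 in GSK-LSD1 and 76.6 kb in DMSO. Ifit2 had 63.2 kb of E2 in GSK-LSD1 and 5.0 kb in DMSO, and Ifit3 had 44.2 and 5.0 kb. Around Ifit1 E2 was already broad in DMSO, at 33.4 kb, against 44.2 kb in GSK-LSD1. The Ifi200 cluster had 115.8 kb of E2 in GSK-LSD1 and 51.0 kb in DMSO, with blocks of 30.4 kb over Ifi204 and its neighbour Ifi207 (173735001 to 173765400) and 27.2 kb over Mndal (173850201 to 173877400). At Ddx58 a block of 25.0 kb lay inside the gene (chromosome 4, 40207801 to 40232800). At Gbp5 a block of 22.8 kb (chromosome 3, 142500001 to 142522800) covered the gene beyond its start.

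Other listed genes went the opposite way. Zbp1 had 7.0 kb of E2 in GSK-LSD1 and 38.4 kb in DMSO, with a block of 38.6 kb (chromosome 2, 173178601 to 173217200) that was E3 in GSK-LSD1. Xaf1, an apoptosis regulator, had 0 kb in GSK-LSD1 and 30.0 kb in DMSO, with a block of 52.8 kb (chromosome 11, 72308201 to 72361000). Oas1g had 0 kb in GSK-LSD1 and 10.6 kb in DMSO, at the edge of a block of 45.2 kb over Oas1f and Oas1h. E5 stayed at the starts of Xaf1 and Oas1a in both segmentations. Per gene, E2 area was larger in GSK-LSD1 at 19 of 48 genes and smaller at 26, beside 21.4% and 55.4% of all protein-coding genes. All marked states together were larger at 23 and smaller at 12, beside 29.9% and 21.0%, and the median difference was 0 kb in both sets.

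Genes upstream in the pathway, none of them in the list of 48, had more TSS-type area at 26 of 29, less at 2 and equal at 1, with a median difference of 4.2 kb. Of all protein-coding genes 66.1% were higher (median 1.4 kb), and of those with a TSS-type end in DMSO, as 25 of these 29 had, 93.6% (median 3.0 kb). The type I receptor genes Ifnar1 and Ifnar2 had 23.6 and 24.6 kb in GSK-LSD1, against 9.0 and 10.2 kb in DMSO. Sting1 (listed as Tmem173), the adaptor of cytosolic DNA sensing, had 28.8 kb in GSK-LSD1 and 15.2 kb in DMSO. Jak1 had 20.6 and 8.6 kb, Socs3 had 35.4 and 23.4 kb, and Tyk2 had 29.6 and 17.8 kb. Stat2, a transcription factor of the type I response, differed less, with 8.8 kb in GSK-LSD1 and 5.8 kb in DMSO. Ifnlr1 (1.4 and 1.8 kb) and the RNA receptor gene Tlr3 (1.4 and 2.4 kb) were lower, and Tlr3 had a TSS-type end only in DMSO. Ifnb1, the interferon beta gene, had 3.0 kb in GSK-LSD1 and 2.6 kb in DMSO and no TSS-type end in either, and Ifng had 0 kb in both. Ifnar1, Ifnar2, Il10rb and Ifngr2 are neighbours on chromosome 16, so their values are not separate observations.

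Granulocytic markers (Mpo, Elane, Prtn3, Cebpe, Csf3r and Itgam) had more TSS-type area in 6 of 6 (beside 66.1% of all genes, as for each marker list here). They summed to 80.2 kb in GSK-LSD1 (4.2 to 17.8 per gene) and 38.8 kb in DMSO (0.2 to 11.4). Of these, Mpo, Cebpe and Itgam had a TSS-type end only in GSK-LSD1 (beside 4.11% of all genes), Prtn3 had one in both segmentations, and Elane and Csf3r had one in neither; Elane and Prtn3 are neighbours whose windows overlap. Monocyte and macrophage markers summed to 29.4 kb in GSK-LSD1 (0 to 21.0) and 8.8 kb in DMSO (0 to 8.4), higher in 2 of 4, with Csf1r and Cx3cr1 at 0 kb in both. B lymphocyte markers summed to 28.4 kb in GSK-LSD1 (0 to 15.4) and 20.4 kb in DMSO (0 to 14.6), higher in 2 of 3, with Ms4a1 at 0 kb in both. T lymphocyte markers summed to 9.0 kb in GSK-LSD1 and 7.6 kb in DMSO (0 to 5.6 in each), higher in 1 of 3, with Cd8a at 0 kb in both. Plasmacytoid dendritic cell markers, a cell type that makes type I interferon, summed to 10.4 kb in GSK-LSD1 (1.6 to 5.2) and 7.8 kb in DMSO (0 to 5.2), higher in 2 of 3. Stromal and endothelial markers summed to 8.6 kb (0 to 4.6) in GSK-LSD1 and 3.4 kb (0 to 1.4) in DMSO, higher in 3 of 4. Among these other lists, Adgre1 (macrophage) and Tcf4 (plasmacytoid dendritic cell) also had a TSS-type end only in GSK-LSD1. Cd14 and Cd79a had one in both segmentations, and the remaining markers of these lists had one in neither. The part of other cell types in the values of the listed genes was not tested.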

How the data were processed

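ChIP-seq libraries for H3K4me1, H3K4me3 and H3K27Ac and 1 input were sequenced. Bowtie and build mm10 (GRCm38) appear, with no role stated, per the submitters' processing notes. The authors deposited 1 segmentation per treatment made from the 3 marks, per the labels; its values are state labels E1 to E6, with no score or count. The labels name no segmentation tool or thresholds. State calls can depend on library depth, which the files do not give.

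Segments were expanded to 200 bp bins on chromosomes 1 to 19 and X (Python 3.11.15, numpy 2.4.6, pandas 2.3.3). Genes came from the RefSeq GRCm38.p6 table, which gives no strand, so both ends were used; strands came from the promoter table. Areas within 20 kb (at most 80.4 kb per gene), end states and bin transitions were compared as descriptions, since each treatment has 1 segmentation. Wilson 95% intervals (scipy 1.17.1) cover counting error only. The sum of state area in gene windows was tested on the DMSO segmentation with E5 bins planted at randomly picked genes. Listed genes, the pathway list and the alternatives were chosen with earlier results of these data known; the exchange between E2 and E3 and the grouping by role were added after the values had been seen. Named genes were those with a TSS-type end in 1 segmentation, the 12 largest increases with ties, all decreases, the 4 clusters, and pathway genes by the same kind of rule; others were named after their values were seen.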

Additional observations from a re-analysis of the deposited data

How the results depend on the processing

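Counting E5 without E6 turned the direction: 15 of 48 listed genes had more and 28 less (37 and 7 with E5 and E6), and 13 of 36 loci had more and 22 less (29 and 6). E5 alone was at a gene end only in GSK-LSD1 at 2 genes and only in DMSO at 17, against 1 and 1 with E6 included, since E6 in GSK-LSD1 then counts as a loss. With E6 alone, windows of 5 or 50 kb, a minimum difference of 1 kb or each locus counted once, the count of genes or loci with more area stayed within 1.5 times its value. Counts for E1 and E6 area and marked area did so under their other alternatives. When the 1 kb around each end was searched, 1 gene had a TSS-type end only in GSK-LSD1 and 0 only in DMSO, but that gene was Ifi204: the calls at Trim21 and Ifi203 were both lost. At annotated starts alone the counts were 1 and 1. The share of E3 in DMSO that was E2 in GSK-LSD1, 45.8%, was 40.1% with 5 kb windows (14.2% for all protein-coding genes), 37.5% with 50 kb windows (13.8%) and 25.8% without the 6 loci with the most such area, which held 63.6% of it. Without any 1 locus it lay between 42.0% (without Herc6) and 48.6%. These alternatives for E2 and E3 were chosen after seeing the data, and the cause was not tested beyond the fewer loci counted. The share of E5 bins that were E6 in GSK-LSD1 was 47.6%, beside 49.7% over the windows of all protein-coding genes. Away from segment boundaries the share for the listed genes was 49.7%. No paired analysis was possible because each treatment has 1 segmentation and its 3 libraries are different marks. With no replicates and no counts, differences of a few bins cannot be told from a shift of a segment boundary.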
